A study of Mus musculus with 20 samples.

Results

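The insulin receptor gene, the genes of its main docking proteins and the core genes of liver glycogen storage and release were followed through an acute inflammatory challenge. The 9 genes were taken by symbol: Insr, Irs1, Irs2, Ugp2, Gys2, Gbe1, Pygl, Ppp1r3b and Ppp1r3c. All 9 were found among the 37681 genes listed in each count table, and all 9 were among the 15578 genes tested. Liver RNA came from male mice, 12 weeks old, of the strain labelled C57/BL6 (C57/B6J in the growth protocol), injected with interleukin-1β (IL-1β) at 20 µg/kg (n = 5) or with saline (n = 5, called untreated), and taken 4 h later. Every RNA sample thus has an Illumina HiSeq library and an Ion Torrent Proton library. With 3 alignments per platform (STAR, GSNAP, and STAR followed by Bowtie2) there are 6 count tables. The Illumina table made with STAR is the main one here and the other 5 tables serve as a check. Each group is a single strain, sex, dose and time, and the liver was profiled whole.

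IL-1β is a cytokine released early in infection and injury that acts on hepatocytes and on the immune cells of the liver. Insulin binds a receptor tyrosine kinase, which phosphorylates the insulin receptor substrates IRS1 and IRS2, and these recruit phosphatidylinositol 3-kinase and, through it, AKT. In the liver this pathway favours glycogen storage and restrains glucose output. Glycogen is built from UDP-glucose, which UGP2 makes, by glycogen synthase (GYS2 in liver) and the branching enzyme (GBE1), and it is broken down by glycogen phosphorylase (PYGL in liver). Glycogen-targeting subunits such as PPP1R3B and PPP1R3C bring protein phosphatase 1 to glycogen, where it activates the synthase and inactivates the phosphorylase.

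The promoters of Irs1, which fell, and of Irs2 and Ppp1r3c, which did not pass the test, are shown. They were picked because all 3 hold the word CACGTG, and those of Irs1 and Irs2 also hold TGTTTTG. Each runs from 250 bases before to 50 bases after the transcription start on the strand of the gene, from RefSeq on build GRCm38.p6, at chr1:82291390-82291689 for Irs1, chr8:11008880-11009179 for Irs2 and chr19:36736555-36736854 for Ppp1r3c, all 3 on the minus strand. Capitals mark CACGTG, the E-box bound by basic helix-loop-helix factors, and TGTTTTG, the core of the element through which FOXO factors act on insulin-repressed genes.
Irs1: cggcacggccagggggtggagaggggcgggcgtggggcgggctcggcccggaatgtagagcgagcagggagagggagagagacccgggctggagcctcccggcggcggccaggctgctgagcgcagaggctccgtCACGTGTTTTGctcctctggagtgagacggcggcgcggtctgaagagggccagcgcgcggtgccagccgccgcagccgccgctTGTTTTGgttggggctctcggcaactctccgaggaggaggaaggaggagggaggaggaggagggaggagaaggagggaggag
Irs2: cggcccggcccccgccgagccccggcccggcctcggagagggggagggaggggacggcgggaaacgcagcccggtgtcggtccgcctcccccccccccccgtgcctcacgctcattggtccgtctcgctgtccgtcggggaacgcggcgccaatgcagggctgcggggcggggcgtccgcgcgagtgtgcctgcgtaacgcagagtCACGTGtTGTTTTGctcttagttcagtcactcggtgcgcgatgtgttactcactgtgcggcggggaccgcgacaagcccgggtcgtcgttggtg
Ppp1r3c: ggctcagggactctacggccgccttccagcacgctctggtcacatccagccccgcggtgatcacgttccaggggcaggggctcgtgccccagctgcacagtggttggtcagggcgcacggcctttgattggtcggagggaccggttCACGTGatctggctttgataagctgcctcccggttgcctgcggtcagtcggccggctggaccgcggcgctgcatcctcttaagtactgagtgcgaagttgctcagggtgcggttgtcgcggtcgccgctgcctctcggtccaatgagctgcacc
In Irs1 the E-box began 115 bases before the start and ran into a TGTTTTG that shares its last letters, with another TGTTTTG 32 bases before the start. In Irs2 the E-box began 44 bases before the start, with TGTTTTG following at 37 bases before it. Ppp1r3c held the E-box 104 bases before the start and no TGTTTTG. Read on both strands, CACGTG was in 7.15% and TGTTTTG in 6.28% of 32851 RefSeq promoters of this length, and 134 of them (0.408%) held both. The promoters shown were picked for these words, so the shares are background and test nothing about the members. Irs1 and Irs2 held both words, though only Irs1 was called. Of the members, 6 had an entry, with 7 promoters because Ugp2 had 2; Insr, Gys2 and Ppp1r3b had none. The promoters of Ugp2, Pygl and Gbe1 held neither word, and none of the 7 promoters held TGTTTAC, TGACGTCA or the NF-kB motif, which were in 3.65%, 1.79% and 4.51% of all promoters. CCAAT, in 37.4% of all promoters, was found in promoters of Irs2, Ugp2 and Ppp1r3c. These are matches of letters, and whether any factor was bound there was not measured.

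Total counts per library lay between 10568530 and 11046256 in the main table and between 11203762 and 16439683 in the other 5. Relative to a fit with no scaling, the composition-adjusted (TMM) fit moved the median fold change (log2, genes averaging 10 counts or more) from -0.17 to 0.0046 in the main table, and fold changes are given on the adjusted scale. The 2 libraries of a mouse deviated from their group means together, with a correlation of 0.562 to 0.722 over 10543 genes in 9 mice and of 0.249 in untreated mouse UNT_9584, so results are also given without that mouse where they change. The summed level of 8 hepatocyte markers was 96000 to 117000 CPM (counts scaled to library size) in untreated and 72100 to 87000 CPM in IL-1β-treated libraries, with 4 of 8 called lower and Tat called higher. Most of that sum was Alb, with means of 903900 counts untreated and 554300 after IL-1β. The summed level of 8 neutrophil markers was 2.04 to 6.16 CPM and 50.1 to 109 CPM, with all 6 tested markers called higher, and that of 6 stellate cell markers was 248 to 304 CPM and 163 to 241 CPM. The summed Kupffer cell and macrophage, endothelial and lymphocyte markers overlapped between the groups, though single markers were called. Of 7 Kupffer cell and macrophage markers 3 were called lower and 1 higher, and of 7 endothelial markers 3 lower and 2 higher. Among 5 tested lymphocyte markers 1 was called lower. Over all genes tested, 22.9% were called lower and 22.7% higher. The cholangiocyte sum was at most 7.07 CPM untreated and at least 9.06 CPM treated, and the adipocyte sum, almost all Cidec, at most 3.44 CPM and at least 6.73 CPM. Of the muscle and pancreas markers 3 of 4 and 4 of 5 were at 0 in every library. In whole liver, fewer cells of a type and less RNA per cell cannot be told apart, and the part that cell composition has in the values below was not tested.

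In the main table, 6 of the 9 genes were lower after IL-1β (edgeR quasi-likelihood test, Benjamini-Hochberg adjusted p below 0.05 over 15578 genes) and none was called higher. These were Irs1, Gys2, Ppp1r3b, Ugp2, Pygl and Gbe1, in order of the size of the fall. Of all genes tested in it, 45.7% were called, 22.9% lower and 22.7% higher. The median log2 fold change was -1.0 over the 9 genes and 0 over all genes tested. The receptor itself, Irs2 and Ppp1r3c were not called. The same 6 genes were called lower in each of the other 5 tables, where 23.9% (Illumina, GSNAP), 24.4% (Illumina, STAR and Bowtie2), 21.8% (Ion Torrent, STAR), 23.9% (Ion Torrent, GSNAP) and 24% (Ion Torrent, STAR and Bowtie2) of all genes were called lower.

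**Figure D1:**
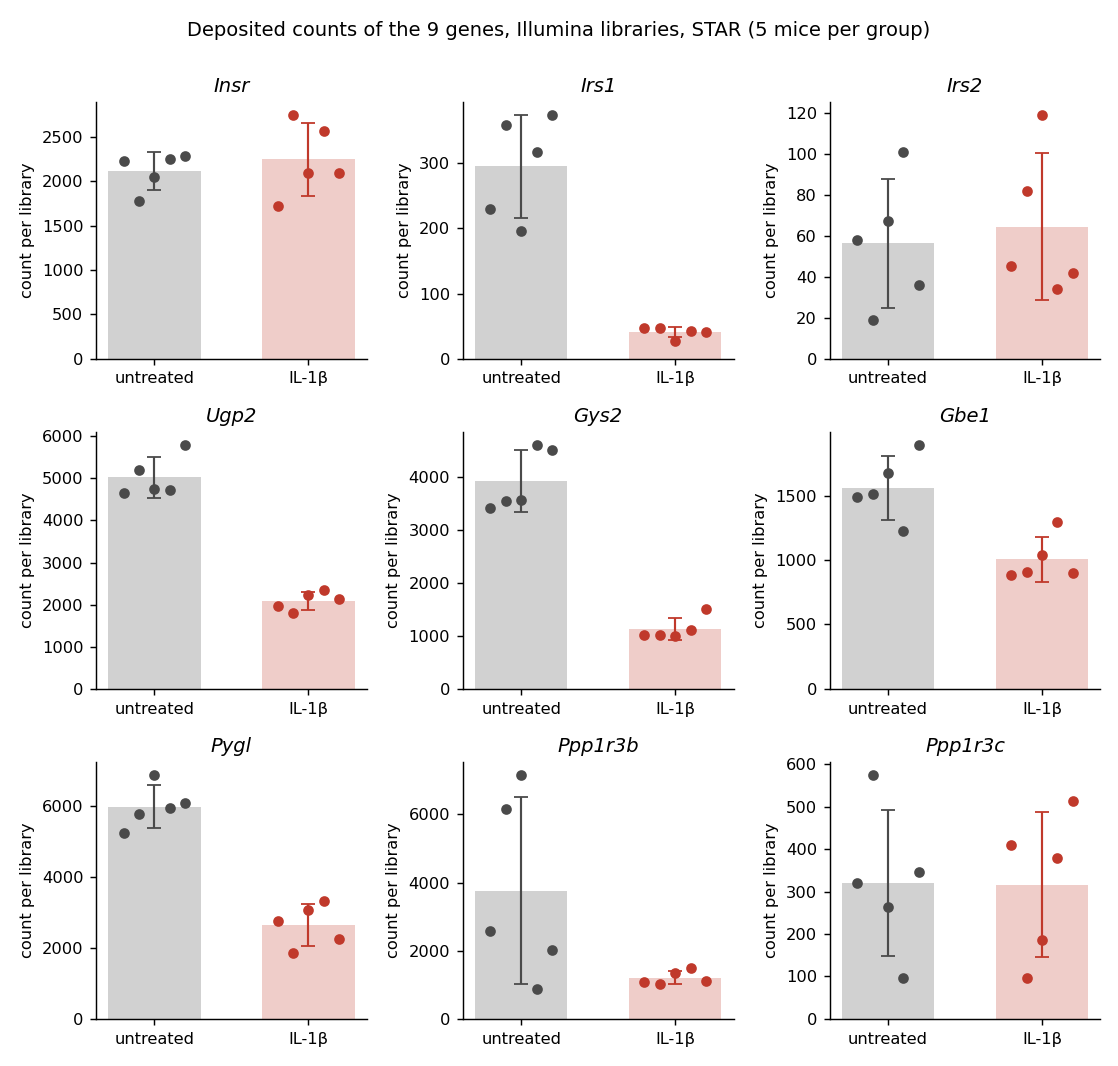
Deposited count per library (vertical axis, linear from 0) of the 9 genes in the Illumina STAR table; points are single mice, bars the mean and whiskers the SD of 5 mice. The IL-1β points lie below every untreated point for Irs1, Ugp2, Gys2 and Pygl, and the untreated points of Ppp1r3b run from 872 to 7167.

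Insr encodes the insulin receptor and lies on the minus strand at chr8:3150922-3279617 (build NCBIM37, also called mm9, as are the positions that follow). Its counts in the 5 untreated Illumina libraries were 1777, 2048, 2230, 2256 and 2291, and in the 5 IL-1β libraries they were 1724, 2091, 2097, 2569 and 2753. The groups overlapped from end to end. Its log2 fold change was 0.26 ± 0.13 (SE), with a 95% interval from -0.028 to 0.55 and an adjusted p of 0.134. In the Ion Torrent STAR table the counts were 1218, 1439, 1469, 1577 and 1706 untreated and 1456, 1594, 1701, 1954 and 2074 after IL-1β, and the receptor was called higher there by 0.40 ± 0.12 (adjusted p = 0.0146). It was called higher in all 3 Ion Torrent tables and in no Illumina table, and the difference between the platforms' log2 fold changes, 0.17 with a 95% interval from 0.00875 to 0.33, did not pass the adjusted test (adjusted p = 0.696). The Illumina value rose to 0.35 (adjusted p = 0.0332) when IL-1β mouse ILB_9577, the one with the lowest count, was left out. Of the Ion Torrent calls, that with GSNAP was lost without UNT_9575, UNT_9576, ILB_9578 or ILB_9582 (adjusted p = 0.0586 to 0.0681), and that with STAR and Bowtie2 without ILB_9582 (adjusted p = 0.0626). With no scaling, the 3 Ion Torrent calls were lost (adjusted p = 0.103 to 0.154), and by the Mann-Whitney test they were lost too (adjusted p = 0.245 to 0.332).

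Irs1 encodes the receptor substrate IRS1, an adaptor that carries the insulin signal to phosphatidylinositol 3-kinase, and lies at chr1:82229676-82287991 on the minus strand. It had the deepest fall of the 9 genes. Counts were 195, 230, 316, 358 and 374 in untreated libraries and 28, 41, 42, 47 and 47 after IL-1β. The highest treated library was thus far below the lowest untreated library. The log2 fold change was -2.67 ± 0.21 (95% interval -3.13 to -2.22, adjusted p = 1.58e-07), which left 15.7% of the untreated level. From the lowest log2 fold change upwards it ranked 69 among the 10841 genes averaging 20 counts or more.

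The Irs1 fall was called in all 6 tables, with log2 fold changes from -2.67 to -2.03, and the groups did not overlap in any of them. Ion Torrent counts (STAR) were 117, 118, 142, 158 and 166 untreated and 15, 24, 26, 34 and 39 after IL-1β. The Ion Torrent fall was smaller by 0.47 on the log2 scale (95% interval 0.0765 to 0.87), a difference that did not pass the adjusted test (adjusted p = 0.696).

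Irs2, the other main substrate in liver, lies at chr8:10986980-11008458 on the minus strand and behaved differently. Illumina counts were 19, 36, 58, 67 and 101 untreated and 34, 42, 45, 82 and 119 after IL-1β. Each group spread over more than a 3-fold range and the groups overlapped almost completely. Its log2 fold change was 0.37 ± 0.40, with a 95% interval from -0.47 to 1.22 (adjusted p = 0.484). No change was detected, and a change in either direction within that interval remains possible. On Ion Torrent (STAR) the counts were higher, 87, 157, 159, 214 and 246 untreated and 61, 74, 87, 177 and 269 after IL-1β, and the log2 fold change was -0.22 ± 0.35 (adjusted p = 0.669). Across the 6 tables the value ran from -0.22 to 0.44, negative in the 3 Ion Torrent tables, and it was called in none.

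The ratio of Irs1 to Irs2 counts within a library does not depend on scaling between libraries. It was 2.91 to 18.8 in the 5 untreated Illumina libraries and 0.235 to 1.24 in the 5 treated ones, so the ranges did not overlap. The mean log2 ratio fell from 2.56 ± 1.19 to -0.51 ± 0.97 (SD, n = 5 per group; two-sided exact permutation test over 252 splits, p = 0.00794, the smallest it can give, and 0.0159 adjusted over 4 ratios). On Ion Torrent the ratio was 0.577 to 1.91 untreated and 0.0558 to 0.557 treated, again without overlap (exact permutation p = 0.00794, adjusted 0.0159). The 4 ratios were chosen after the values had been seen.

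Ugp2, which makes the UDP-glucose that glycogen synthase uses, lies at chr11:21221141-21271204 on the minus strand. Counts were 4652, 4716, 4748, 5209 and 5803 untreated and 1806, 1961, 2126, 2219 and 2343 after IL-1β. Both groups were tight, with no overlap. Ugp2 had a log2 fold change of -1.09 ± 0.11 (adjusted p = 2.07e-06), leaving 46.9% of the untreated level, and it ranged from -1.09 to -0.80 over the 6 tables.

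Gys2 encodes the liver glycogen synthase, which lengthens the glycogen chain, and lies at chr6:142371133-142421629 on the minus strand. Its counts were 3412, 3562, 3567, 4513 and 4620 in untreated libraries. After IL-1β they were 993, 1017, 1022, 1119 and 1509. This gave a log2 fold change of -1.63 ± 0.15 (95% interval -1.95 to -1.30, adjusted p = 7.12e-07), the deepest fall among the glycogen enzymes followed here, with 32.4% of the untreated level left. It varied little between tables, from -1.63 to -1.51, and the groups did not overlap in any.

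Gbe1, the branching enzyme, lies at chr16:70314194-70569961 on the plus strand and changed least of the genes called. Counts were 1229, 1487, 1515, 1674 and 1897 untreated and 886, 900, 909, 1041 and 1294 after IL-1β. The highest treated library exceeded the lowest untreated one, so in these counts the groups overlapped by a single pair. On the adjusted scale the overlap was wider. There ILB_9582, at 128.3 CPM, lay above both UNT_9580 (109.3 CPM) and UNT_9574 (123.8 CPM). Gbe1 had a log2 fold change of -0.46 ± 0.14 (95% interval -0.76 to -0.16, adjusted p = 0.0142), 72.7% of the untreated level. It was called in all 6 tables (-0.49 to -0.37, adjusted p at most 0.0235). In the Ion Torrent tables the call did not survive the loss of some single mice, with adjusted p of 0.0529 and 0.0548 without IL-1β mouse ILB_9577 or ILB_9583 (STAR), 0.056 and 0.0512 without the same mice (GSNAP), and 0.0526 to 0.0621 without ILB_9577, ILB_9583 or untreated mouse UNT_9576 or UNT_9584 (STAR and Bowtie2).

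Pygl, the liver glycogen phosphorylase that releases glucose-1-phosphate from glycogen, lies at chr12:71291798-71332475 on the minus strand. Counts were 5228, 5759, 5927, 6088 and 6873 untreated. After IL-1β they were 1856, 2247, 2745, 3063 and 3305, and every treated library was below every untreated one. The log2 fold change was -1.0 ± 0.15 (adjusted p = 5.36e-05), 49.9% of the untreated level, with a range of -1.01 to -0.89 over the tables. Irs1, Ugp2, Gys2 and Pygl were thus the 4 members without overlap in the main table, where 21.4% of all genes tested had every treated count below every untreated count.

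Enzymes of glycogen synthesis and of glycogen breakdown fell in the same livers, and ratios within a library compare the size of their falls. Ugp2 to Pygl was 0.691 to 0.953 untreated and 0.709 to 0.973 after IL-1β, a mean log2 difference of -0.0640 (exact permutation p = 0.643). Gys2 to Pygl was 0.519 to 0.779 untreated and 0.324 to 0.672 after IL-1β, a difference of -0.60 on the log2 scale that missed the threshold (exact permutation p = 0.0556, adjusted 0.0741), and on Ion Torrent it was -0.61 (p = 0.0397, adjusted 0.0529, exact permutation). Gbe1 to Pygl rose by 0.57 (exact permutation p = 0.00794, adjusted 0.0159), and by 0.50 on Ion Torrent with the same p. Gbe1 thus fell less than Pygl in the STAR tables of both platforms, whereas a difference between the falls of Ugp2 and Pygl was not detectable.

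Ppp1r3b encodes the main glycogen-targeting subunit of protein phosphatase 1 in liver and lies at chr8:36438795-36451178 on the plus strand. Untreated counts were 872, 2015, 2587, 6155 and 7167, and counts after IL-1β were 1037, 1095, 1101, 1340 and 1492. On the adjusted scale (CPM), untreated mice differed by up to 7.94-fold and treated mice by up to 1.45-fold. Untreated mouse UNT_9580 lay below every treated mouse, and the other 4 untreated mice lay above all of them. The log2 fold change was -1.44 ± 0.40 (95% interval -2.29 to -0.58, adjusted p = 0.00826), and it was called in all 6 tables by edgeR (-1.45 to -1.39). This call depended on the test. By the Mann-Whitney test, which ranks the libraries, the adjusted p was 0.236 to 0.263 over the 6 tables, and by limma-voom it was 0.0607 to 0.144.

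Ppp1r3c encodes PPP1R3C, also called PTG, another glycogen-targeting subunit, and lies at chr19:36806227-36811143 on the minus strand. Its counts were 96, 263, 321, 346 and 576 untreated and 96, 186, 379, 410 and 513 after IL-1β. The lowest library of each group held the same count. The log2 fold change was 0.17 ± 0.41 (95% interval -0.72 to 1.05, adjusted p = 0.798), and no table called it (0.16 to 0.23, adjusted p of at least 0.618).

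**Figure D2:**
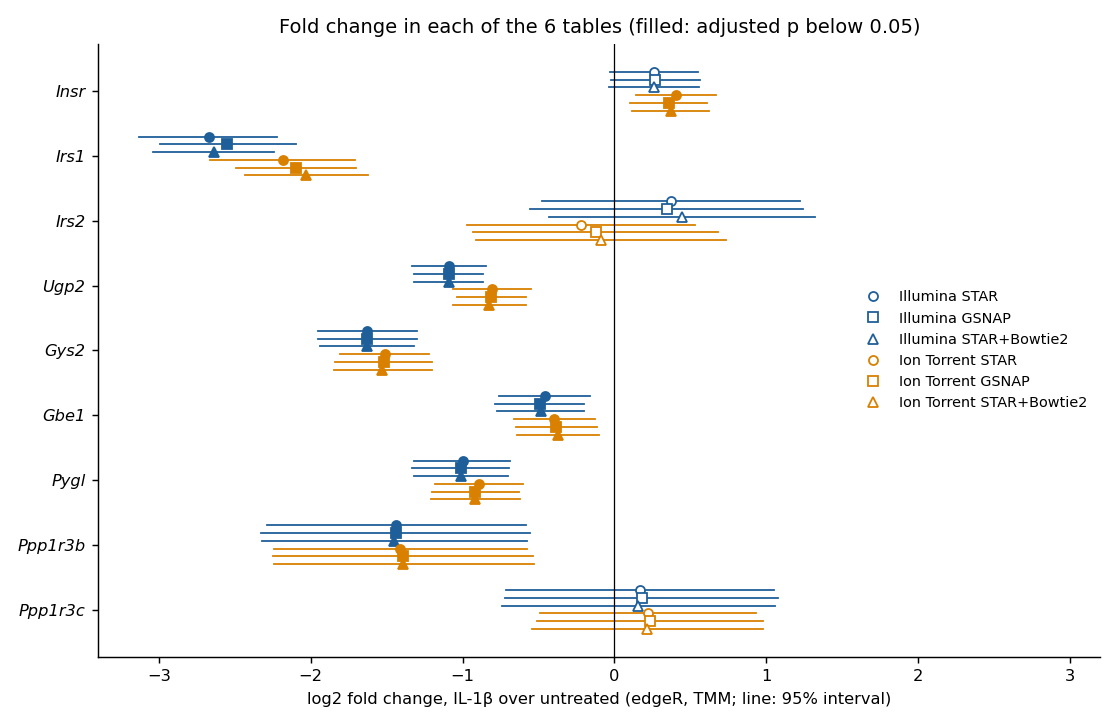
Log2 fold change, IL-1β over untreated (horizontal axis), of the 9 genes in the 6 tables, with 95% intervals; blue is Illumina, orange Ion Torrent, and filled symbols have an adjusted p below 0.05. Irs1, Ugp2, Gys2, Gbe1, Pygl and Ppp1r3b are filled and left of 0 in all 6 tables, and Insr is filled only in the 3 Ion Torrent tables.

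Per kilobase of merged exon, levels in untreated Illumina libraries were highest for Ugp2 (143 ± 19.4 CPM per kb, SD, n = 5), Pygl (136 ± 16.0) and Gys2 (130 ± 24.4), whose ranges overlapped. Ppp1r3b followed with a mean of 77.0 CPM per kb and a range of 18.4 to 146 that reached both its neighbours. Gbe1 (20.4 to 32.9) overlapped with Insr (15.6 to 22.0), and Insr with Ppp1r3c (3.14 to 18.0). Irs1 (1.83 to 3.80) and Irs2 (0.402 to 2.23) were lowest and overlapped as well. After IL-1β, Pygl (68.0 ± 15.2) and Ugp2 (67.2 ± 7.55) stayed above Ppp1r3b (28.4 ± 4.78) with no overlap, and Irs2 (0.838 to 2.94) lay above Irs1 (0.304 to 0.507) with no overlap. The order depended on the platform. In untreated Ion Torrent libraries (STAR) Pygl (159 to 200 CPM per kb) lay above Gys2 (108 to 157) and Gys2 above Ugp2 (71.5 to 95.9), with no overlap. That separation depended on the aligner. With GSNAP, Pygl (150 to 186) and Gys2 (108 to 158) overlapped. With STAR and Bowtie2, Gys2 (95.1 to 142) overlapped with both Pygl (139 to 173) and Ugp2 (79.6 to 101). The order of the substrates turned as well, since in untreated Ion Torrent libraries Irs2 (1.60 to 4.84 CPM per kb) already lay above Irs1 (0.928 to 1.35).

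**Figure D3:**
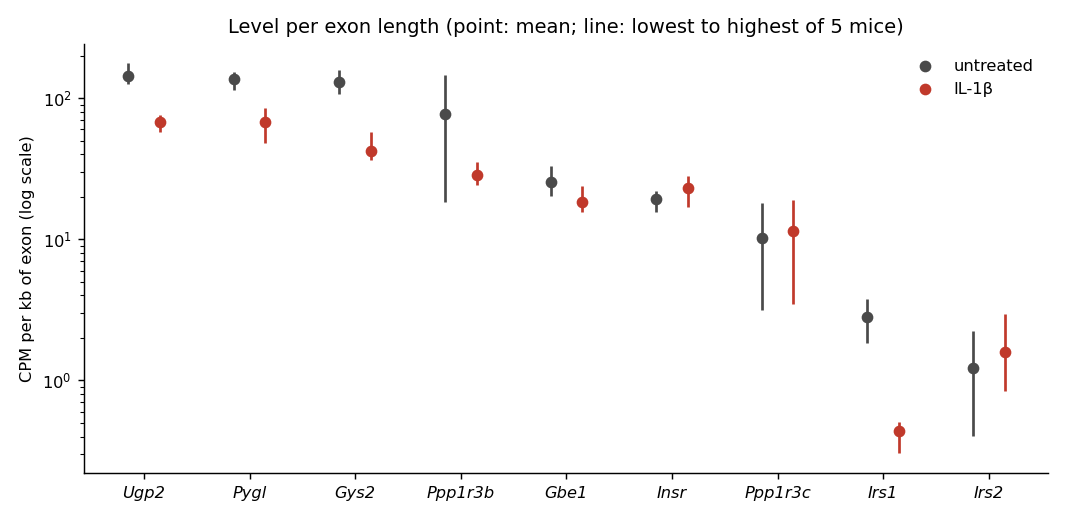
Level per exon length in CPM per kb (vertical axis, log scale) in the Illumina STAR table; points are means and lines run from the lowest to the highest of 5 mice, grey untreated and red IL-1β. Ugp2, Pygl and Gys2 lie at 130 to 143 CPM per kb in untreated liver, and Irs1 drops from 2.83 to 0.441.

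The 9 genes differed in how far mice of the same group lay apart. In untreated Illumina libraries the SD of log2 CPM was 1.21 for Ppp1r3b, 0.93 for Ppp1r3c and 0.90 for Irs2, against a median of 0.222 over the 10841 genes averaging 20 counts or more. Of those genes, 0.332%, 0.867% and 0.996% had a larger SD. Pygl, Ugp2 and Insr were the steadiest of the members, at 0.174, 0.185 and 0.19. After IL-1β the SD of Ppp1r3b was 0.235, near the median of 0.199, whereas Ppp1r3c and Irs2 stayed wide at 0.99 and 0.75.

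These differences between mice recurred on the other platform. For Ppp1r3b the 5 untreated mice stood in the same order on both platforms, with Ion Torrent counts of 657, 1594, 2346, 4984 and 6227. Its deviations from the group mean correlated over the 10 mice with r = 0.997 and rho = 0.952 (exact permutation within groups, p = 1.39e-04 and 4.17e-04, adjusted over 9 genes 9.38e-04 and 0.00375), and r was 0.989 without the 2 mice farthest from the median. For Ppp1r3c r was 0.974 and rho 0.939, and for Irs2 r was 0.840 and rho 0.915 (exact permutation p = 6.94e-04 and 0.00222, and 0.00597 and 0.00389; adjusted 0.00208 and 0.00698, and 0.00830 and 0.00698). Insr, Irs1, Gys2, Gbe1 and Pygl had r from 0.756 to 0.971. For Irs1 and Gbe1, r passed (exact permutation, adjusted p = 0.0101 and 0.00830). Their rho of 0.600 and 0.685 missed the threshold (exact permutation, adjusted p = 0.0556 and 0.0513). Without the 2 mice farthest from the median their r was 0.572 and 0.588. Ugp2 had the lowest agreement, with r = -0.159 (exact permutation p = 0.664) and r = -0.116 without the 2 mice farthest from the median. Mouse UNT_9584 deviated in opposite directions for Ugp2, by 0.31 on Illumina and by -0.21 on Ion Torrent (log2 CPM). Sharing of the small Ugp2 differences between mice of a group was thus not detected.

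Irs2 and Ppp1r3c tended to deviate in opposite directions within the groups. The mouse with the highest Ppp1r3c in the untreated group, UNT_9575, had 576 Ppp1r3c and 19 Irs2 counts, and the mouse with the lowest, UNT_9580, had 96 and 101. Over the 10 mice r was -0.847 and rho -0.952 (exact permutation p = 0.00479 and 0.00250), and r was -0.758 without the 2 mice farthest from the median. Of 36 pairs of members this was the strongest, but it failed the correction (adjusted p = 0.172 and 0.0900, exact permutation). The Ion Torrent libraries of the same mice gave r = -0.830 and rho = -0.903 (exact permutation p = 0.00729 and 0.00542, adjusted 0.263 and 0.195), and r = -0.860 without the 2 farthest mice. No pair passed.

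**Figure D4:**
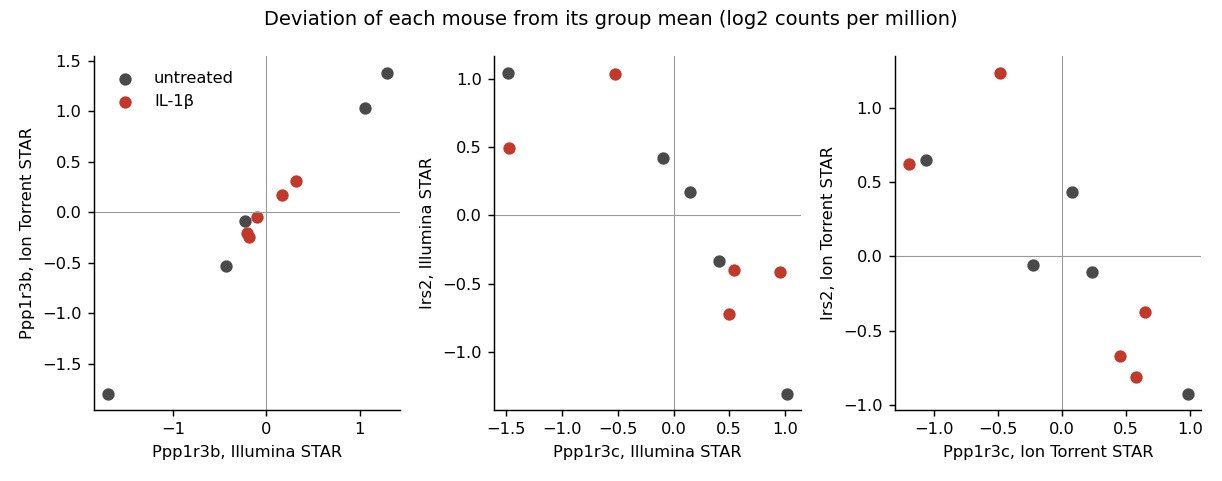
Deviation of each mouse from its group mean in log2 CPM, grey untreated and red IL-1β (5 mice each): Ppp1r3b on Ion Torrent against Illumina (left), and Irs2 against Ppp1r3c on Illumina (centre) and on Ion Torrent (right). The left points lie along a rising line (r = 0.997) and the centre and right points along falling ones (r = -0.847 and -0.830).

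Whether the platforms measured a different response was tested with a platform-by-treatment term and the mouse as a block. None of the 9 genes passed (edgeR, adjusted p 0.653 to 0.935), and 4 had an unadjusted p below 0.05: Irs2, Irs1, Ugp2 and Insr. Over all genes 0.00642% (1 of 15578) passed and 1090 had an unadjusted p below 0.05. The largest member term was that of Irs2, -0.64 on the log2 scale (Ion Torrent minus Illumina, 95% interval -1.08 to -0.199, edgeR adjusted p = 0.653). By limma-voom none passed either, and 4 were below 0.05 unadjusted. Without the mouse as a block, none passed and none was below 0.05 unadjusted. Leaving out mouse UNT_9584 kept the 6 lower calls in 5 tables and cost Gbe1 its call in the Ion Torrent STAR and Bowtie2 table (-0.34, adjusted p = 0.0561).

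Transcripts on the opposite strand overlap an exon of 4 members: Gm9747 for Irs1, 9530052E02Rik for Irs2, Gm12043 for Ugp2 and F730035M05Rik for Pygl. Both library kits kept the strand, but the sources used here do not say whether the counting used it. If it did not, reads of such pairs cannot be told apart. The overlapping genes themselves had between 0 and 5 counts in every Illumina and Ion Torrent STAR library.

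Of 33 other genes of insulin signalling, all were tested, and 9 were called lower and 5 higher, with a median log2 fold change of 4.5e-04, near the 0 of all genes; of all genes tested, 22.9% were called lower and 22.7% higher, so the share of this list that was called, 14 of 33, is near the background and is no result about the list. The falls were led by Grb14, an adaptor that inhibits the receptor (-1.20 ± 0.19, adjusted p = 9.27e-05), which went from 393 to 547 counts untreated to 100 to 250 after IL-1β. Enpp1, a membrane phosphodiesterase also described as a receptor inhibitor, fell by 1.0 on the log2 scale, and Inppl1, the lipid phosphatase SHIP2, by 0.56. Ceacam1, which promotes insulin clearance by hepatocytes, fell by 0.53, and Prkcz, an atypical protein kinase C, by 0.46.

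The highest rise was that of Ptpn1, the tyrosine phosphatase PTP1B that dephosphorylates the insulin receptor. Its counts were 185, 253, 299, 340 and 355 untreated and 1450, 1547, 1574, 1577 and 1611 after IL-1β, far apart (2.62 ± 0.14, adjusted p = 2.11e-09). Grb2 and Shc1, adaptors that link receptors to RAS, were higher by 1.17 and 0.65, Akt2, the main hepatic AKT isoform, by 0.54, and Rps6kb1, the S6 kinase, by 0.26. Genes described as inhibitors of the receptor thus moved both ways, Grb14 and Enpp1 down and Ptpn1 up.

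Of 28 other genes of glycogen metabolism, 26 were tested, 8 were lower and 7 higher, beside 22.9% and 22.7% of all genes tested, and the median log2 fold change was -0.097. Phka2, the regulatory alpha subunit of liver phosphorylase kinase, fell by 1.61 (262.6 ± 32.1 to 76.0 ± 11.6 counts, SD, n = 5, adjusted p = 2.06e-07). Pygm, the muscle phosphorylase, was barely present (7.8 against 2.6 mean counts, -1.37). Epm2a, which encodes the glycogen phosphatase laforin, fell by 1.21, and Pgm2l1, a glucose-1,6-bisphosphate synthase, by 1.14.

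On the other side, Gys1, the synthase isoform typical of muscle, rose by 1.39 on the log2 scale (adjusted p = 1.8e-04) from 34.6 ± 11.6 to 80.0 ± 21.1 counts, the opposite direction to Gys2. Ppp1r3d, a further targeting subunit, rose by 1.74 from a mean of 2.6 to 8 counts. Pgm3, an enzyme of the hexosamine pathway, rose by 1.31, and Phkg2, the catalytic subunit of liver phosphorylase kinase, by 0.99. A gene deposited as Pgm1 rose by 1.03. The gene deposited under the symbol Pgm1 was scarce, with means of 41.4 counts untreated and 75.2 after IL-1β. The far more abundant gene deposited as Pgm2 was called lower (means of 2556 and 1573 counts, -0.53, edgeR adjusted p = 3.9e-04). Deposited symbols need not match current ones, so the rise under Pgm1 is not read as a rise of phosphoglucomutase 1. Of the 4 phosphorylase kinase subunit genes tested, Phka2 and Phkb (-0.42, adjusted p = 0.0291) were thus called lower, Phkg2 was called higher and Phka1 was not called (-0.08).

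**Figure D5:**
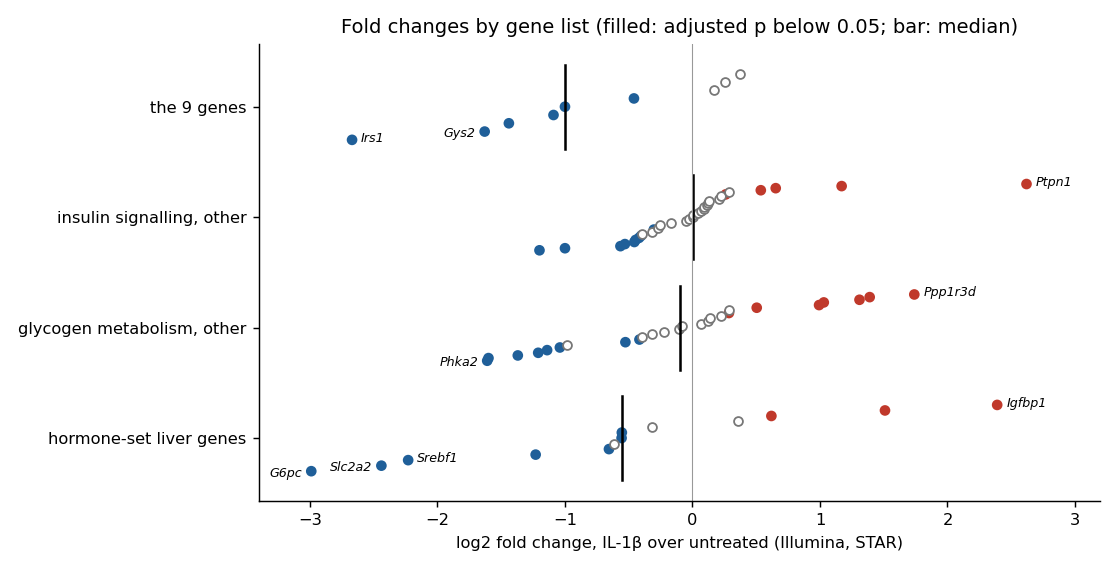
Log2 fold change, IL-1β over untreated, in the Illumina STAR table for the 9 genes and 3 further lists (33, 26 and 13 genes tested); filled points have an adjusted p below 0.05, blue lower and red higher, and black bars are medians. The median of the 9 genes is at -1.0, against 4.5e-04, -0.097 and -0.56 for the other lists.

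Among 13 liver genes known to be set by insulin, glucagon or glucocorticoid, 7 were lower and 3 higher (median -0.56), beside 22.9% and 22.7% of all genes tested. G6pc, the catalytic subunit of glucose-6-phosphatase, fell by 2.99, Slc2a2, the glucose transporter GLUT2, by 2.44, Srebf1, a regulator of lipid synthesis, by 2.23, Ppargc1a, a coactivator of gluconeogenic genes, by 1.23 and Nr3c1, the glucocorticoid receptor, by 0.66. Igfbp1, an insulin-repressed secreted protein, rose by 2.39, with 135 to 577 counts untreated and 395 to 3395 after IL-1β, and Tat rose by 1.51 and Trib1 by 0.62. Pck1 and Pdk4 were not called (-0.32 and 0.36). Over the 3 lists 39 genes were called, 24 lower and 15 higher, beside 45.7% of all genes tested. With no scaling the split was 30 and 13. Without scaling the median log2 fold change of all genes averaging 10 counts or more was also lower, at -0.17.

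The genes whose deviations over the 10 mice were most like those of Irs1, among 7809 genes averaging 100 counts or more, were Mterfd2 (r = 0.935), Gm16536 (0.927) and Ankra2 (0.917) on Illumina. On Ion Torrent the same correlations were 0.759, 0.182 and -0.0331, so the likeness recurred for Mterfd2 and not for the others. These are the highest of 7809 values, given as a description.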

How the data were processed

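Liver RNA of 10 mice (5 treated with IL-1β, 5 untreated) was sequenced on 2 platforms. The counts deposited by the authors are whole reads per Ensembl gene on mm9, made separately for each platform and aligner (STAR 2.5.1b, GSNAP 2015-12-31 or STAR followed by Bowtie2 2.2.9, per the labels), after ribosomal and mitochondrial reads had been removed and the libraries of a table re-sampled to a common depth with PORT. Re-sampling discards reads and so lowers the precision for low genes such as Irs2. Comparisons were made within a table only. Here, genes reaching 5 reads in 5 or more of the 10 libraries in any table were tested with edgeR 4.0.16 (TMM, quasi-likelihood F-test) in R 4.3.3, adjusted by Benjamini-Hochberg over 15578 genes, with a threshold of 0.05; SE is the log2 fold change over the root of F. The platform-by-treatment term was fitted with the mouse as a block, since aliquots of the same RNA went to both platforms and the deviations of the paired libraries correlated in every mouse (0.249 to 0.722). Alternatives were the Mann-Whitney test (as the study used), DESeq2 1.42.0, limma-voom (limma 3.58.1), other scalings and filters, and leaving out each mouse. The tests across genes were tested on simulated data. Exon lengths and positions came from GENCODE M1 on NCBIM37, which is mm9; the positions in the files extend 250 (Illumina) or 246 (Ion Torrent) bases further on each side.

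The 9 members and the lists were chosen with earlier results of these data known. From the 3 pathway lists, genes called in the main table with the same direction in all 6 tables were named. They were taken with the largest changes first, at most 5 per list and direction. Pck1 and Pdk4, uncalled, and Phkb, Phka1 and Pgm2 were added to these. Some listed genes are counted but not reported here by name. Ratios, correlations between members and the fits without mouse UNT_9584 were chosen after seeing the data. Mice are the replicates, and intervals cover the spread between these mice.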

Additional observations from a re-analysis of the deposited data

Results flagged for a closer look

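The Gys2 count of 1509 in the Illumina STAR library of IL-1β mouse ILB_9583 stood apart from the other 4 treated mice (993 to 1119): its gap to the nearest of them was 0.756 of the range of the group, above the Dixon critical value of 0.71 for 5 samples. The Ion Torrent library of the same mouse also had the highest treated count, 1766. It was the only such value in 18 groups examined (9 genes, 2 treatments), and chance gives about 1 in 20.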

How the results depend on the processing

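The number of members called stayed between 5 and 7 of 9 in each of the 6 tables under the Mann-Whitney test, DESeq2, limma-voom, DESeq2 size factors, no scaling and leaving out each mouse (5 to 7), and in the main table also under total-count scaling, other filters and a threshold on the size of the change. Irs1, Ugp2, Gys2 and Pygl kept their call under all 19 alternatives run in the main table. Gbe1 lost it where an absolute log2 fold change above 1 was required, and Ppp1r3b under the Mann-Whitney test (adjusted p = 0.25) and limma-voom (-1.09, adjusted p = 0.0985); without single mice Ppp1r3b ranged from -1.69 to -1.07. Pygl met the required change above 1 only narrowly, at -1.0 with all mice and -1.11 to -0.90 without single mice. The uncalled Ppp1r3c ranged from -0.09 to 0.47 without single mice, so its sign is not settled. Other pathway genes called numbered 39, and 34 to 42 without single mice. With the mouse as a replicate block 0 members had a platform-by-treatment term, and without the block 0 as well; over all genes the count was 1 with the block and 0 without it. The paired fit applies to this term only. The lowest Illumina counts were those of Irs1 after IL-1β (28 to 47) and of Irs2 (19 to 119), where the relative counting error is largest among the 9 genes.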
